A study of Arabidopsis thaliana with 16 samples.

Results

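Transcript levels at 10 h were set against those at 4 h in phyB-1 plants of Arabidopsis thaliana grown at 22 °C. The comparison uses 4 of the 16 arrays of the series, the 2 labelled phyB-1, 22 °C, 10 h and the 2 labelled phyB-1, 22 °C, 4 h, chosen by their labels and paired by replicate number. phyB-1 is a mutant of phytochrome B in the Landsberg erecta (Ler) background, and all the plants compared carried it. Ler wild type plants at 22 °C, sampled at 10 h and 4 h with 2 arrays each, served for the test of whether the time difference depended on genotype, and Ler plants at 16 °C, again at 10 h and 4 h with 2 arrays each, shared in the estimate of the spread. The labels describe the tissue as the plant without its roots. Seed was stratified for 5 days at 4 °C in darkness, and plants grew on soil for 11 days at 16 °C and then for 21 days at 22 °C. This schedule is given for every array, also for those labelled 16 °C. The start of the hour count is not stated, nor is it stated whether replicate arrays came from separately grown plants, so p-values measure the spread between these arrays, which may be technical.

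Phytochrome B is a photoreceptor for red and far-red light that restrains elongation growth in the light and also takes part in temperature sensing. A large share of plant transcripts cycles over the day, driven by the circadian clock, by light and by the daily build-up and use of sugars and starch. In leaves, genes for light harvesting tend to peak in the earlier part of the day, and genes induced by sugar shortage are held low while photosynthesis supplies sugar. The comparison asks which transcripts differ between the 2 sampling times when phytochrome B is mutant.

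Values were deposited as linear array intensities (MAS5), 1 per probe set, and differences are given as log2 units on the log2(intensity + 16) scale, 10 h minus 4 h, with the standard error (SE) from limma. The added 16 makes the change of dim probe sets appear smaller than it is. A probe set is called at a Benjamini-Hochberg adjusted p under 0.05. Median intensities were 38.2 and 32.1 on the 10 h arrays of phyB-1 and 40 and 33.2 on its 4 h arrays, and lower quartiles were 9.63 and 5.87 at 10 h and 11.1 and 7.23 at 4 h. Replicate arrays correlated across probe sets at 0.975 at 10 h and 0.965 at 4 h. All 3 leaf marker probe sets lay above the array median on each of the 4 arrays. Neither the 4 flower nor the 2 seed marker probe sets did, and of 3 root marker probe sets 1 did. GAPDH control probe sets, read as a 3' over 5' log2 ratio that tracks RNA integrity, gave 0.812 and 0.787 at 10 h and 0.596 and 0.615 at 4 h, and the actin controls gave 3.49 and 3.87 at 10 h and 3.99 and 3.47 at 4 h. The GAPDH ratio thus moved with time in phyB-1 and the actin ratio did not, and the part of RNA integrity in the time difference was not tested. PHYB was not analysed here, since no probe set was paired with it.

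Time of sampling was associated with a large change in the transcriptome of phyB-1. Of 13647 probe sets tested, 2952 were called (21.6%), with 1517 higher at 10 h (11.1%) and 1435 lower (10.5%). In 2932 of them neither 10 h array overlapped the 4 h arrays, which largely follows from being called and adds no support. The share without overlap over all probe sets tested is not given here. Differences of at least 1 log2 unit were found in 582 probe sets that were higher and 689 that were lower, and differences of at least 2 units in 104 and 153. Counted by gene, with 1 probe set for each of 7307 genes, 786 genes were higher at 10 h (10.8%) and 652 were lower (8.92%). The median difference over all probe sets tested was 0.01. In these whole shoots, fewer cells of a type and less RNA per cell cannot be told apart. When the 4 arrays of phyB-1 at 16 °C, 2 of them with doubtful time labels, entered the fit, 313 probe sets were called, all of them among the 2952. Leaving out the array labelled phyB-1 10 h replicate 1 gave 1579 calls, without 10 h replicate 2 there were 1796, and without 4 h replicate 2 there were 1907.

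COR27, a cold- and evening-induced gene of the circadian system, showed the largest rise among probe sets with 1 gene. It had intensities of 661 and 644 at 10 h against 7.77 and 4.02 at 4 h, which is background on these arrays. The difference was 4.94 ± 0.27 log2 units (30.6-fold on this scale, adjusted p = 5.5e-10), at 4.83 in replicate pair 1 and 5.04 in replicate pair 2. AT3G15450 stood at 2848 and 2768 at 10 h against 142 and 99.5 at 4 h (log2 4.38 ± 0.16, adjusted p = 4.8e-12). AT5G19120 stood at 598 and 631 at 10 h and at 11.7 and 14.0 at 4 h (4.45 ± 0.26). The next largest rises were those of AT3G15630 (log2 4.39), AT3G59350 (3.83), AT1G07050 (3.55), AT4G33980 (3.32), AT1G25275 (3.10), AT2G30600 (2.94), AT1G30250 (2.89), AT5G14120 (2.84), AT4G27450 (2.82), AT5G62360 (2.82) and AT2G15960 (2.73). AT5G61590, which is DEWAX, a transcription factor that represses wax synthesis genes in darkness, reached 1314 and 1043 at 10 h against 159 and 142 at 4 h (2.84 ± 0.27, adjusted p = 4.2e-07).

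AT1G13650 showed the largest fall, to 15.3 and 13.2 at 10 h, against 1003 and 812 at 4 h (log2 -4.93 ± 0.23, adjusted p = 1.3e-10). AT3G21670, the transporter gene NPF6.4 of the nitrate and peptide transporter family, had 39.4 and 51.9 at 10 h against 994 and 878 at 4 h (-3.95 ± 0.19). SWEET13, which encodes a sucrose efflux carrier, had 37.3 and 13.5 at 10 h against 464 and 438 at 4 h (-3.56 ± 0.22, adjusted p = 3.5e-09). ARD4, a gene of the acireductone dioxygenase family that acts in methionine salvage, had 121 and 103 at 10 h against 1322 and 1405 at 4 h (-3.43 ± 0.19). In each of these genes the arrays of the 2 times were at least several-fold apart. Other large falls were those of AT1G73600 (log2 -4.05), AT5G35970 (-3.72), AT3G56290 (-3.57), AT3G01060 (-3.44), AT5G55570 (-3.24), AT3G48460 (-3.18), AT2G15020 (-3.15), AT1G65490 (-3.09), AT1G55960 (-3.09), AT1G62510 (-2.98) and AT3G57020 (-2.94). AT2G15020 was at background at 10 h, at 1.12 and 0.522, against 144 and 123 at 4 h, so the added 16 sets the size of its difference. Wider differences occurred in probe sets that are unnamed here, chosen after their values were seen. Probe set 252367_at had 1836 and 1644 at 10 h against 3.56 and 3.49 at 4 h, 267461_at had 5920 and 6738 against 64.6 and 63.3, and 262113_at had 2.13 and 6.52 at 10 h against 1998 and 2002 at 4 h.

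**Figure D1:**
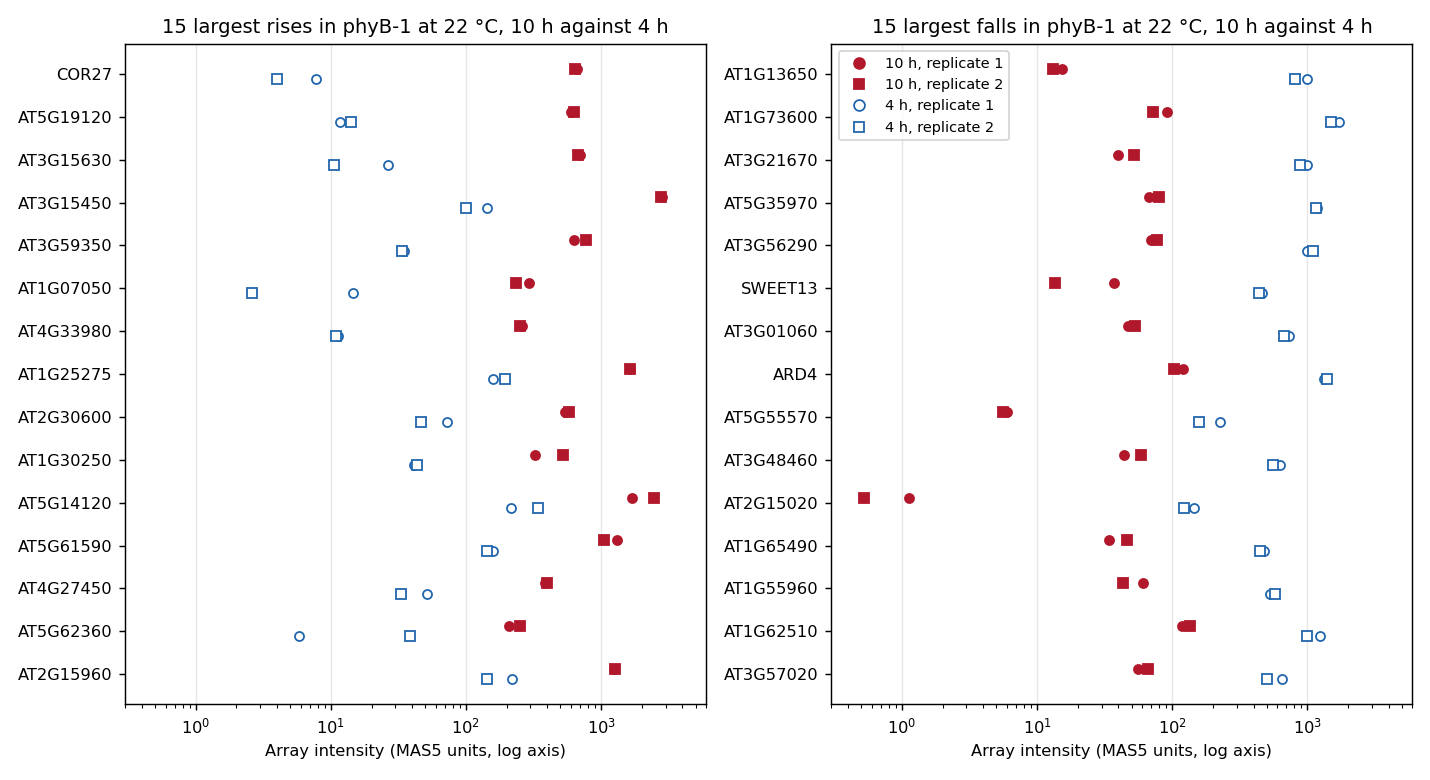
Array intensities (log axis) of the 15 genes with the largest rise and the 15 with the largest fall in phyB-1 at 22 °C, with filled red symbols for 10 h, open blue symbols for 4 h, circles for replicate 1 and squares for replicate 2. The 2 times do not overlap in any of the 30 genes, which is part of the rule that chose them, and the replicates of a time lie close together in most.

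The tested genes of the low-sugar list, which are induced in plants short of carbon or kept in darkness, were higher at 10 h. Of its 44 genes 6 were tested, and all 6 rose, against 10.8% of all genes tested, with a median difference of 1.48. This list and those below were written with earlier results of these data known, so their counts are descriptions and not independent support. Of 2328 genes in all lists, 357 had a probe set with 1 gene. AKINBETA1 encodes a regulatory subunit of SnRK1, the protein kinase that responds to energy shortage. It had 418 and 470 at 10 h against 55.1 and 60.3 at 4 h (log2 2.64 ± 0.20, adjusted p = 2.5e-08). EXO, a gene for an extracellular protein that promotes leaf growth, had 967 and 795 at 10 h against 158 and 138 at 4 h (2.45 ± 0.26, adjusted p = 1.9e-06). BZIP53, a transcription factor that pairs with other bZIP factors to activate amino acid breakdown genes, had 405 and 395 at 10 h against 145 and 156 at 4 h (1.32 ± 0.23). The enzymes of leucine breakdown followed the same direction. MCCA, a subunit of methylcrotonyl-CoA carboxylase, had 138 and 158 at 10 h against 31.3 and 43.4 at 4 h (1.63 ± 0.25). The other subunit, MCCB, rose by 0.71 ± 0.16, and IVD, isovaleryl-CoA dehydrogenase, by 0.73 ± 0.20. Both of these calls were lost without 10 h replicate 1 (adjusted p = 0.066 for MCCB and 0.14 for IVD) and without 4 h replicate 2 (0.074 and 0.19), and that of IVD also without 10 h replicate 2 (0.084).

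Autophagy delivers cell contents to the vacuole for breakdown, and ATG8 proteins are the ubiquitin-like tags of its membranes. Of 11 autophagy genes tested, 5 were called higher, against 10.8% of all genes, and none lower, and all 5 belong to the ATG8 family. ATG8E had 332 and 254 at 10 h against 54.7 and 39.3 at 4 h (log2 2.29 ± 0.20, adjusted p = 1.5e-07). ATG8D had 136 and 151 at 10 h against 58.5 and 55.3 at 4 h (1.13 ± 0.20), and ATG8F had 923 and 970 against 409 and 521 (1.01 ± 0.17). These 3 genes were thus higher in both replicate pairs without overlap. ATG8C rose by 0.82 ± 0.18 and lost its call without 10 h replicate 1 (adjusted p = 0.072). ATG8A, listed as APG8A, rose by 0.70 ± 0.22, with adjusted p = 0.10 without the replicate block, and lost its call without 10 h replicate 1 (adjusted p = 0.38), 4 h replicate 1 (0.10) or 4 h replicate 2 (0.18). Without 10 h replicate 1 the list had 3 calls. ATG8B (-0.02) and ATG3 (0.16), the enzyme that attaches ATG8 to lipid, did not pass the test.

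Starch built up in the light is broken down at night by enzymes that first phosphorylate and then cut the granule. PWD (AT5G26570), a phosphoglucan water dikinase, had 904 and 758 at 10 h against 281 and 259 at 4 h (log2 1.56 ± 0.19, adjusted p = 1e-05). DPE1, the chloroplast disproportionating enzyme that works on maltotriose, had 311 and 285 at 10 h against 166 and 121 at 4 h (0.99 ± 0.17). These were 2 of the 3 starch breakdown genes tested, from a list of 32, against 10.8% of all genes called higher. The second gene with the symbol PWD, AT4G24450, was at -0.14 and not called. Of 3 starch synthesis genes tested, from a list of 23, 1 was called lower, against 8.92% of all genes. This was SBE2.2, a branching enzyme, which fell by 0.58 ± 0.16. Its call was lost without 10 h replicate 1 (adjusted p = 0.15), 10 h replicate 2 (0.070) or 4 h replicate 2 (0.14).

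In the list of sugar transport and sucrose or trehalose metabolism, 9 genes were tested. Of these 4 fell and 1 rose, against 8.92% lower and 10.8% higher over all genes, and all 4 that fell were SWEET carriers. ATSPS4F, a sucrose phosphate synthase gene that the list does not hold, also fell (-1.97 ± 0.17), and is named after its value was seen. SWEET13 is given above. SWEET2, SWEET16 and SWEET17, carriers of the vacuolar membrane, fell by 1.13 ± 0.23, 0.98 ± 0.24 and 1.04 ± 0.25. SWEET17 had 98.9 and 134 at 10 h against 238 and 269 at 4 h. The call of SWEET2 was lost without 10 h replicate 1 (adjusted p = 0.060) or 4 h replicate 2 (0.058), that of SWEET16 without the same arrays (0.11 and 0.086), and that of SWEET17 without 10 h replicate 1 (0.055) or 4 h replicate 1 (0.069), which left 1 fall in the list without 10 h replicate 1. SWEET11 (-0.13), SWEET1 (0.00) and SWEET4 (0.36) were not called. TMT1, which loads monosaccharides into the vacuole, rose in contrast, at 147 and 226 at 10 h against 62.1 and 54.5 at 4 h (1.42 ± 0.22, adjusted p = 0.00013).

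Of 59 nuclear photosystem and antenna genes in the list, 12 were tested. At 10 h 2 were called lower and none higher, against 8.92% lower and 10.8% higher over all genes. The median difference of the 12 was -0.26. LHCB4.2, a minor antenna protein of photosystem II, had 1044 and 1149 at 10 h against 3079 and 3008 at 4 h (log2 -1.46 ± 0.17, adjusted p = 4.3e-06). PSBY, a small photosystem II subunit, had 3080 and 3888 at 10 h against 5884 and 6810 at 4 h (-0.87 ± 0.14). The other 10 did not pass, among them LHCB4.1 (-0.29) and LHCB4.3 (-0.22), so the 3 LHCB4 genes differed in their calls. Their differences were not tested against each other. The fit of the 4 phyB-1 arrays alone called 4 photosystem and antenna genes lower and 2 higher. In the Calvin cycle all 3 genes tested, from a list of 22, fell, against 8.92% of all genes, with a median of -0.78. RCA, the activase of Rubisco, had 4044 and 6624 at 10 h against 8755 and 10472 at 4 h (-0.89 ± 0.17). SBPASE, sedoheptulose bisphosphatase, had 2546 and 2372 at 10 h against 4214 and 4251 at 4 h (-0.78 ± 0.15). PRK, phosphoribulokinase, fell by 0.63 ± 0.21. Its call was lost without the replicate block (adjusted p = 0.085) and without 10 h replicate 1 (0.24), 10 h replicate 2 (0.12), 4 h replicate 1 (0.12) or 4 h replicate 2 (0.19), and missed the threshold narrowly without either 4 h array of Ler at 22 °C (0.052 for each). HPR, hydroxypyruvate reductase of photorespiration, had 3675 and 3647 at 10 h against 5524 and 5475 at 4 h (-0.58 ± 0.14), a call lost without 10 h replicate 1 (adjusted p = 0.069) or 4 h replicate 2 (0.056). The 3 leaf markers, 2 of which are LHCB4.2 and RCA, summed to 10820 and 14910 at 10 h and to 19750 and 21250 at 4 h, and their part in other falls was not tested.

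Few chloroplast-encoded transcripts were called. Of 66 tested, 3 were called (4.55%, against 19.7% of all genes tested), and the differences of the 66 ran from -1.02 to 0.74 around a median of 0.00. The lowest value belonged to rbcL, the large subunit of Rubisco, which had 203 and 520 at 10 h against 403 and 1130 at 4 h and was not called (adjusted p = 0.093). psbD, the D2 protein of photosystem II, fell by 0.74 ± 0.20, and lost its call without 10 h replicate 1 (adjusted p = 0.14) or 4 h replicate 2 (0.27). ndhE and psbM rose by 0.72 ± 0.20 and 0.74 ± 0.23, with adjusted p = 0.069 and 0.054 without the replicate block. Both were lost without 10 h replicate 1 (adjusted p = 0.051 and 0.17) and 10 h replicate 2 (0.14 and 0.12), ndhE also without 4 h replicate 1 (0.13) and psbM without 4 h replicate 2 (0.65). Over the 22 alternatives other than the fits of all 16 arrays, 0 to 8 of these transcripts were called higher and 0 to 3 lower. In pigment synthesis, 2 of 9 chlorophyll and haem genes rose, against 10.8% of all genes. PORB, a light-dependent protochlorophyllide reductase, had 2483 and 3313 at 10 h against 1466 and 1262 at 4 h (1.07 ± 0.18, adjusted p = 0.00024). HEMB1, the enzyme that makes porphobilinogen, had 860 and 941 at 10 h against 537 and 658 at 4 h (0.59 ± 0.15). Its call was lost without 10 h replicate 1 (adjusted p = 0.064), 10 h replicate 2 (0.11) or 4 h replicate 1 (0.15), and each of these left 1 rise in the list.

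**Figure D2:**
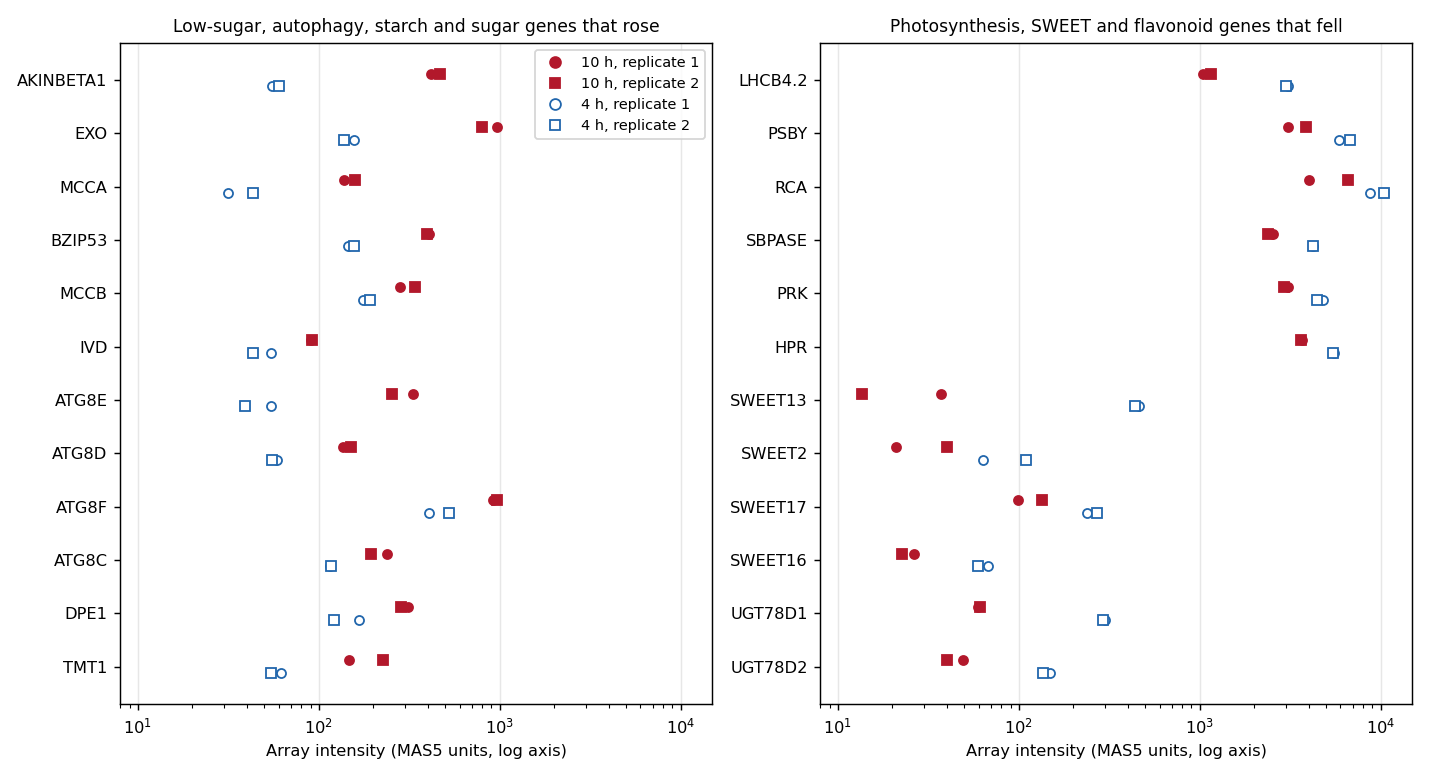
Array intensities (log axis) of called low-sugar, autophagy, starch and sugar transport genes that were higher at 10 h (left panel) and of called photosynthesis, SWEET and flavonoid genes that were lower at 10 h (right panel) in phyB-1 at 22 °C, with 10 h filled red, 4 h open blue, circles for replicate 1 and squares for replicate 2. AKINBETA1 lies at 418 and 470 at 10 h against 55.1 and 60.3 at 4 h, and SWEET13 at 37.3 and 13.5 at 10 h against 464 and 438 at 4 h.

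The circadian clock is a set of repressors and activators expressed in turn over the day, and few of its genes have a probe set named here. None of the 13 morning-phased genes was tested. Of the afternoon- and evening-phased genes, COR27 rose as given above and GI, a clock and flowering gene, fell, at 92.5 and 103 at 10 h against 166 and 177 at 4 h (log2 -0.72 ± 0.20, adjusted p = 0.017). The call of GI was lost without 10 h replicate 1 (adjusted p = 0.10), 10 h replicate 2 (0.11), 4 h replicate 1 (0.11) or 4 h replicate 2 (0.072). The 4 other clock-related genes were not called, with STIPL1 at -0.10, FIO1 at 0.22, TIC at 0.23 and XCT at 0.27.

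Many cold-response genes protect cells against freezing and drought, and several cycle daily without cold. Of 6 tested, 4 were higher at 10 h, against 10.8% of all genes, and none lower, with a median difference of 1.04. COR27, which is also in the clock list above, is 1 of these 4. COR15B, a chloroplast protein that stabilises membranes, had 1987 and 1469 at 10 h against 343 and 293 at 4 h (log2 2.37 ± 0.16, adjusted p = 9.5e-09). COR47, a dehydrin, had 1166 and 1314 at 10 h against 593 and 484 at 4 h (1.18 ± 0.18). COR15A, a close relative of COR15B, had 2245 and 1358 at 10 h against 1219 and 719 at 4 h. Its difference of 0.89 ± 0.17 appears within each replicate pair, since the arrays numbered 1 were the brighter at both times, and the adjusted p was 0.058 without the replicate block. LTI30, another dehydrin, had 49.4 and 47.4 at 10 h against 53.1 and 49.7 at 4 h, and with STZ, a zinc finger gene, it was not called (-0.07 and 0.10). In the heat list, Fes1A, an Hsp70-associated factor, rose by 1.71 ± 0.24 and 2 of the 8 genes were called higher (10.8% of all genes), the second being the immunophilin gene ROF2 (AT5G48570, 0.97 ± 0.24). ROF2 lost its call without 10 h replicate 1 (adjusted p = 0.070), 10 h replicate 2 (0.072) or 4 h replicate 2 (0.071). The calreticulin gene CRT1b fell by 0.80 ± 0.18, a call lost without 10 h replicate 1 (adjusted p = 0.071).

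Among light-signalling genes, HYH, the relative of the transcription factor HY5 that promotes light responses, was at background at 10 h. It had 4.67 and 0.62 at 10 h against 75.8 and 55.9 at 4 h (log2 -2.13 ± 0.30, adjusted p = 3.8e-05). SPT, a bHLH factor that limits leaf growth, had 50.1 and 53.7 at 10 h against 23.6 and 20.7 at 4 h (0.83 ± 0.26). The call of SPT was lost without the replicate block (adjusted p = 0.064), and without 10 h replicate 1 (0.086), 10 h replicate 2 (0.23), 4 h replicate 1 (0.13) or 4 h replicate 2 (0.10). Shade avoidance is the elongation response that loss of phytochrome B sets off. Of its 5 genes tested, 1 was called higher and 1 lower, against 10.8% and 8.92% of all genes. IAA29, an auxin response repressor, was higher (0.81 ± 0.25) and HAT2, a homeodomain factor, lower (-0.76 ± 0.26), with adjusted p = 0.084 and 0.10 without the replicate block. YUC2, BIM1 and DRT100 did not pass. IAA29 lost its call without 10 h replicate 1 (adjusted p = 0.14), 10 h replicate 2 (0.16) or 4 h replicate 2 (0.21). HAT2 lost it without 10 h replicate 1 (adjusted p = 0.25), 10 h replicate 2 (0.14) or 4 h replicate 1 (0.54), and narrowly without either 4 h array of Ler at 22 °C (0.057 for each).

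Few hormone genes have a probe set named here. Auxin response had 3 of 5 genes called higher, IAA29 among them, against 10.8% of all genes, and none lower. IAA18, another repressor of the Aux/IAA family, had 243 and 175 at 10 h against 97.5 and 91.2 at 4 h (log2 1.01 ± 0.21, adjusted p = 0.0019), and its call was lost without 10 h replicate 1 (adjusted p = 0.093). GH3.3, which conjugates auxin to amino acids, had 76.3 and 86.0 at 10 h against 27.6 and 25.3 at 4 h (1.19 ± 0.31), and lost its call without 10 h replicate 2 (adjusted p = 0.10), 4 h replicate 1 (0.054) or 4 h replicate 2 (0.062). GID1A, a gibberellin receptor, had 132 and 170 at 10 h against 60.7 and 73.2 at 4 h (1.01 ± 0.19, adjusted p = 0.00067). SPY, an inhibitor of gibberellin signalling, also rose (0.58 ± 0.20), a call lost without the replicate block (adjusted p = 0.093), without 10 h replicate 1 (0.086), 10 h replicate 2 (0.35), 4 h replicate 1 (0.090) or 4 h replicate 2 (0.26), and narrowly without either 10 h array of Ler at 22 °C (0.051 for each). Of the 5 gibberellin genes tested, 2 were thus called higher, against 10.8% of all genes. The other 3 were not called, among them the receptor gene GID1C at 0.16. In jasmonate signalling the related transcription factors MYC4 and MYC3 were called in opposite directions, MYC4 at -1.07 ± 0.26 and MYC3 at 0.59 ± 0.19. MYC4 lost its call without 10 h replicate 1 (adjusted p = 0.13) or 4 h replicate 2 (0.081). MYC3 lost it without the replicate block (adjusted p = 0.077), 10 h replicate 1 (0.37), 4 h replicate 1 (0.10) or 4 h replicate 2 (0.18).

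Genes of protective secondary metabolites, where called, were lower at 10 h. In flavonoid and anthocyanin synthesis 4 of 5 genes fell, against 8.92% of all genes, and none rose, with a median of -1.15. UGT78D1, which adds rhamnose to flavonols, had 59.8 and 61.1 at 10 h against 298 and 292 at 4 h (log2 -2.03 ± 0.18, adjusted p = 2e-07). UGT78D2, which adds glucose to flavonols and anthocyanidins, had 49.4 and 40 at 10 h against 148 and 137 at 4 h (-1.39 ± 0.20). Both were well apart between the times. UF3GT (-0.71 ± 0.22) and CHIL (-1.15 ± 0.36) were called too, with adjusted p = 0.10 and 0.088 without the replicate block, which left 2 falls in the list. CHIL had 2.3 and 4.3 at 10 h against 7.47 and 61.8 at 4 h, so 4 h replicate 2 carried it, and without that array its adjusted p was 0.58. It was also lost without 10 h replicate 1 (adjusted p = 0.088) or 10 h replicate 2 (0.21), and UF3GT without 10 h replicate 1 (0.21), 10 h replicate 2 (0.11), 4 h replicate 1 (0.16) or 4 h replicate 2 (0.095). DFR was at -0.41 and not called. Leaving out 10 h replicate 1, 10 h replicate 2 or 4 h replicate 2 likewise left 2 falls.

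Glucosinolates are sulphur-containing defence compounds made from methionine and other amino acids, and 4 of 6 genes of their synthesis fell, against 8.92% of all genes. AOP3, which modifies the side chain, had 551 and 583 at 10 h against 1869 and 1663 at 4 h (log2 -1.61 ± 0.20, adjusted p = 9.4e-06). BCAT4, the aminotransferase that starts methionine chain elongation, had 751 and 1303 at 10 h against 2040 and 2753 at 4 h (-1.25 ± 0.16). AOP1 fell by 1.00 ± 0.18 and UGT74B1, which adds glucose to the core structure, by 0.92 ± 0.17. These 4 calls were kept in each alternative other than the fits of all 16 arrays. In phenylpropanoid synthesis HCT, an acyltransferase of lignin precursor synthesis, fell by 0.94 ± 0.17, and in sulfate assimilation SIR, sulfite reductase, fell by 0.62 ± 0.16. SIR lost its call without 10 h replicate 1 (adjusted p = 0.18) or 4 h replicate 2 (0.081).

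**Figure D3:**
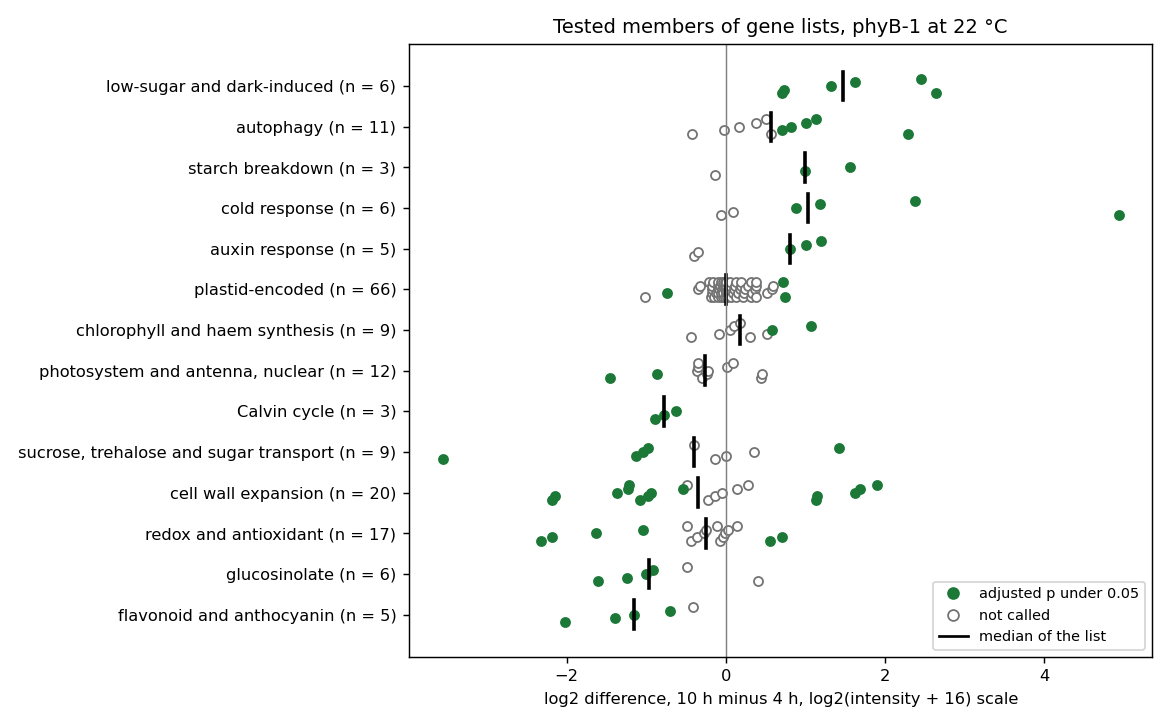
Differences between 10 h and 4 h (log2 units, 10 h minus 4 h) in phyB-1 at 22 °C for each tested member of 14 gene lists, with green points for called genes, open points for genes not called and a black bar for the median of the list. All 6 low-sugar genes lie to the right of 0, all 3 Calvin cycle genes to the left, and 63 of 66 chloroplast-encoded genes are not called.

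Cell wall genes split in both directions. Of 20 expansin, xyloglucan and glucanase genes tested, 5 were higher at 10 h and 9 lower, against 10.8% and 8.92% of all genes, with a median of -0.35. XTH32, a xyloglucan-modifying enzyme, had 167 and 152 at 10 h against 721 and 841 at 4 h (log2 -2.18 ± 0.18, adjusted p = 6.8e-08). GH9C2, an endoglucanase, had 103 and 142 at 10 h against 578 and 607 at 4 h (-2.15 ± 0.21). Both expansin B genes tested, EXPB1 (-1.37) and EXPB3 (-1.21), and the expansin A genes EXPA15 (-1.23) and EXPA8 (-0.98) also fell, and these 4 are named after their values were seen. Among the genes that rose, EXLA1, an expansin-like gene, had 207 and 269 at 10 h against 57.9 and 45.2 at 4 h (1.91 ± 0.20, adjusted p = 2.2e-06). XTH33 had 37.3 and 60.2 at 10 h against 3.02 and 4.66 at 4 h (1.68 ± 0.28), EXPA16 had 111 and 108 against 17.5 and 33.2 (1.63 ± 0.28) and XTH16 had 300 and 286 against 128 and 121 (1.14 ± 0.17). Members of the XTH and expansin A families thus stood on both sides. EXGT-A3, a xyloglucan endotransglucosylase gene that the list does not hold, also rose (1.90 ± 0.27), and is named after its value was seen.

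In redox metabolism, 4 of 17 genes fell, against 8.92% of all genes, and 2 rose, a share near the 10.8% of all genes. Both glutathione reductases fell, GR1, the cytosolic form, to 99.3 and 101 at 10 h against 520 and 613 at 4 h (log2 -2.32 ± 0.16, adjusted p = 8e-09), and GR, the organellar form, to 360 and 386 at 10 h against 761 and 811 at 4 h (-1.04 ± 0.16). VTC4, a phosphatase of ascorbate synthesis, had 147 and 174 at 10 h against 688 and 893 at 4 h (-2.18 ± 0.16). The ascorbate peroxidase genes SAPX (-0.28) and TAPX (-0.03), by contrast, were not called. GSTU16, a glutathione transferase, fell by 1.63 ± 0.34. The thioredoxin gene ATHM2 rose by 0.70 ± 0.15, a call lost without 4 h replicate 2 (adjusted p = 0.070), and the glutaredoxin gene GRXC2 by 0.55 ± 0.17, a call lost without the replicate block (0.054), 10 h replicate 2 (0.29) or 4 h replicate 2 (0.31). Among flowering genes SNZ, a repressor of flowering of the AP2 family, was near background at 10 h, with 6.65 and 13.1 at 10 h against 144 and 112 at 4 h (-2.48 ± 0.26, adjusted p = 1.9e-06). Its relative SMZ was at -0.21 and not called, as were AGL19, AGL24, FY and LD, so with GI 2 of 7 flowering genes fell, against 8.92% of all genes. In the cell cycle and histone list 3 of 8 genes rose, against 10.8% of all genes, led by the linker histone genes HIS1-3 (1.33 ± 0.24) and HON4 (0.998 ± 0.185). SIM, an inhibitor of cell division, also rose (0.87 ± 0.23), and lost its call without 10 h replicate 1 (adjusted p = 0.14), 10 h replicate 2 (0.062) or 4 h replicate 1 (0.20). None of the 3 stomatal lineage genes was called, with SPCH at -0.11, FMA at -0.02 and STOMAGEN at 0.40.

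Of 5 genes used as references in expression assays, 1 was called lower at 10 h and 1 higher, against 8.92% and 10.8% of all genes. GAPC2, a glycolytic enzyme, had 2384 and 3291 at 10 h against 5466 and 5770 at 4 h (log2 -0.999 ± 0.162, adjusted p = 0.00018). UBC28 rose by 0.89 ± 0.22, and lost its call without 10 h replicate 2 (adjusted p = 0.11) or 4 h replicate 2 (0.088). TUB6 (-0.05), AT2G28390 (0.24) and PEX4 (0.48, adjusted p = 0.074) were not called. Of 8 tubulin and actin genes, 1 was called lower and 2 higher, against the same shares of all genes. ACT11 was lower (-0.83 ± 0.18) and TUB5 higher (0.70 ± 0.15). TUB9 was also called higher (0.68 ± 0.19), a call lost without 10 h replicate 1 (adjusted p = 0.22) or 4 h replicate 2 (0.31).

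Whether the time difference depends on phytochrome B was tested by setting the difference in phyB-1 at 22 °C against that in Ler at 22 °C, which shares no arrays with it. In Ler 3386 probe sets were called (24.8%), and 1 probe set was called for the interaction of genotype and time (0.00733%), while 490 (3.59%) had an unadjusted p under 0.05. Of the 2952 calls in phyB-1, 2928 (99.2%) had the same sign in Ler and 2290 were also called there in the same direction. These shared calls are 77.6% of the calls in phyB-1 and 67.6% of those in Ler, and no probe set was called in opposite directions. Across the 13647 probe sets the differences in phyB-1 and Ler correlated at 0.889 (Spearman 0.784), given as a description over probe sets, which are not independent replicates. The differences of the 2 replicate pairs of phyB-1 correlated at 0.825 (0.686). The median size of the difference among the phyB-1 calls was 0.93 in phyB-1 and 0.92 in Ler. At 16 °C, 2746 of the phyB-1 calls had the same sign in Ler. The probe sets behind these same-sign counts and medians were chosen by their call in phyB-1. The same-sign share over all probe sets tested is not given here.

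Of 118 named genes called in phyB-1, 116 had the same sign in Ler at 22 °C, 105 were also called there, and none was called for the interaction. An unadjusted limma interaction p under 0.05 was found in 16 of the 118, against 3.59% of all probe sets. The 118 include the 5 genes chosen for the smallest interaction p. With 2 arrays per group, the lack of a call does not show that the differences were equal. COR27 stood at 4.94 ± 0.27 in phyB-1 and 5.31 ± 0.27 in Ler, AKINBETA1 at 2.64 ± 0.20 and 3.00 ± 0.20, and LHCB4.2 at -1.46 ± 0.17 and -1.74 ± 0.17. SWEET13 stood at -3.56 ± 0.22 in phyB-1 and -2.93 ± 0.22 in Ler. Some differences between the genotypes were wider without passing the test. VTC4 was at -2.18 ± 0.16 in phyB-1 and -3.08 ± 0.16 in Ler (adjusted p = 0.89 for the interaction). PORB rose by 1.07 ± 0.18 in phyB-1 and 0.56 ± 0.18 in Ler, and GSTU16 was at -1.63 ± 0.34 in phyB-1 and -0.61 ± 0.34 in Ler, where it was not called (adjusted p = 0.22). ROF2 was at 0.97 ± 0.24 in phyB-1 and 0.05 ± 0.24 in Ler (adjusted p = 0.91 for time in Ler), and UGT74B1 at -0.92 ± 0.17 in phyB-1 and -1.81 ± 0.17 in Ler. For each of these 4 genes the interaction itself was not called (adjusted p = 1.0).

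The probe set called for the interaction was 245325_at, which is unnamed here. It had 830 and 922 at 10 h against 37.9 and 31.5 at 4 h in phyB-1, and 48.6 and 62.1 at 10 h against 25.4 and 9.89 at 4 h in Ler at 22 °C. The time difference was 4.14 ± 0.31 in phyB-1 and 1.12 ± 0.31 in Ler, a gap of 3.02 ± 0.44 log2 units (adjusted p = 0.033). The 10 h arrays of phyB-1 thus stood far above all other arrays in the fit, which lay at 74.8 or lower. That call was lost without the replicate block (adjusted p = 0.33), without 10 h replicate 1 (0.057), 10 h replicate 2 (0.76), 4 h replicate 1 (0.57) or 4 h replicate 2 (0.16) of phyB-1, and without 10 h replicate 1 (0.51), 4 h replicate 1 (0.60) or 4 h replicate 2 (0.22) of Ler at 22 °C.

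Among genes with a name or locus, the 5 with the smallest interaction p did not pass. AT5G14370 was at 1.04 ± 0.19 in phyB-1 and -0.27 ± 0.19 in Ler (adjusted p = 0.58 for the interaction). AT2G05540 rose by 0.76 ± 0.18 in phyB-1 and by 1.96 ± 0.18 in Ler (adjusted p = 0.58), and its call in phyB-1 was lost without 10 h replicate 2 (adjusted p = 0.11) or 4 h replicate 2 (0.11). AT5G03350 fell by 2.78 ± 0.21 in phyB-1, to 103 and 152 at 10 h against 804 and 1144 at 4 h, and by 1.42 ± 0.21 in Ler (adjusted p = 0.58), and the difference in Ler at 16 °C was 1.29. AT1G51805 fell by 1.71 ± 0.17 in phyB-1 and by 0.72 ± 0.17 in Ler, and AT3G23080 was at 0.69 ± 0.23 in phyB-1 and -0.63 ± 0.23 in Ler (adjusted p = 0.89 for both interactions). The call of AT3G23080 in phyB-1 was lost without the replicate block (adjusted p = 0.26), without 10 h replicate 1 (0.11), 10 h replicate 2 (0.28) or 4 h replicate 2 (0.52), and narrowly without 4 h replicate 1 (0.052) or 2 (0.053) of Ler at 22 °C.

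**Figure D4:**
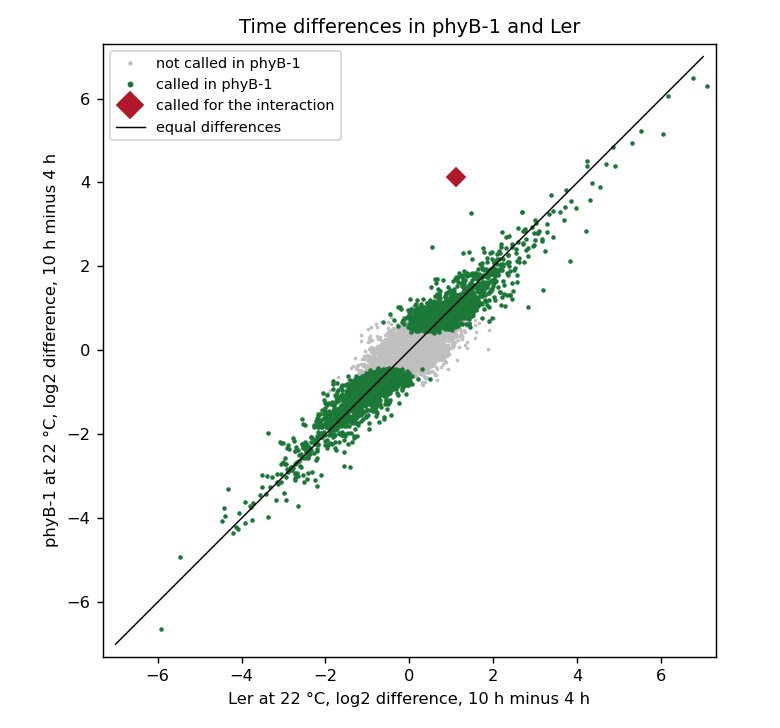
Difference between 10 h and 4 h (log2 units) in phyB-1 at 22 °C on the vertical axis against that in Ler at 22 °C on the horizontal axis, 1 point per probe set tested, with green points called in phyB-1 and the line of equal differences. Most points lie along the line (r = 0.889 over 13647 probe sets), and the red diamond, 245325_at, stands at 4.14 in phyB-1 and 1.12 in Ler.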

How the data were processed

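The deposited values are linear array intensities, 1 per probe set of the Affymetrix ATH1 array, which the submitters' processing notes credit to MAS5 and GCOS without versions. Total RNA was labelled in one cycle, as the labels' protocols state. The deposited file holds 22810 probe sets, and 64 controls were left out. Precision is limited by the 2 arrays per group.

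Genes were named through the platform annotation and the RefSeq gene table of TAIR10.1. Of the probe sets, 13513 had 1 gene, 503 had several and the others are unnamed here. Of the genes with 1-gene probe sets, 7307 were tested.

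Values were fitted as log2(intensity + 16) with limma 3.58.1 in R 4.3.3 (lmFit, eBayes with an intensity trend), over 12 arrays with a mean for each of 6 groups and the replicate number as a block. Probe sets in the upper 60% by mean were tested, with Benjamini-Hochberg adjustment over all of them and a threshold of 0.05. The 4 arrays of phyB-1 at 16 °C were left out, since 2 have doubtful time labels. Residual degrees of freedom were 5, and the fit was tested on simulated data. The pairing comes from the replicate numbers in the labels. After subtraction of group means, arrays with the same number correlated above 0.1 in all 15 pairs of groups (0.153 to 0.485, and 0.38 for phyB-1 at 22 °C), so the block was kept.

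Named genes are the 15 largest rises and 15 largest falls among called 1-gene probe sets without overlap of the arrays, the called members of smallest p in each list (at most 6), all tested clock genes, and the 5 genes of smallest interaction p. The comparison, the 48 gene lists and the rules were chosen with earlier results of these data known. Lists are described by counts and medians, with no set test. Promoter sequences were not analysed here. Alternatives changed the block, arrays, offset, filter, normalization and trend, and left out each array in turn.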

Additional observations from a re-analysis of the deposited data

Results flagged for a closer look

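The time difference of probe set 245325_at, unnamed here, differed between genotypes at 22 °C by 3.02 log2 units, and the test of the difference itself passed (limma interaction, adjusted p = 0.033). It had 830 and 922 at 10 h against 37.9 and 31.5 at 4 h in phyB-1, and 48.6 and 62.1 at 10 h against 25.4 and 9.89 at 4 h in Ler. In Ler at 16 °C it had 74.8 and 21.2 at 10 h against 33.1 and 8.21 at 4 h. The 2 phyB-1 arrays at 10 h were higher than the other 10. Its difference was 2.58 to 3.46 over the alternatives, and the adjusted p was under the threshold with quantile normalization (0.012), median centring (0.025), the offset of 64 (3e-05) and the upper 40% of probe sets (0.043). It was above the threshold without the replicate block (0.33), with offset 1 (0.89), with no filter (0.98) and without the intensity trend (0.29).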

How the results depend on the processing

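The 2952 calls became 2149 with no replicate block (1077 higher, 1072 lower), all of them among the 2952, and 4193 with the 4 phyB-1 arrays alone. With all 16 arrays as labelled, the fit with the replicate block gave 313 (162 higher, 151 lower) and without the block 334 (160 higher, 174 lower). Leaving out 1 array at a time gave 1579 to 3144 calls (710 to 1628 higher, 869 to 1516 lower), fewest without phyB-1 10 h replicate 1. Offsets of 1 and 64 gave 2734 and 3024, no filter 2422, the upper 40% 2581, quantile normalization 2933, no trend 2696, and the 14-array fit 2927. Median centring gave 2982 with 56.3% higher, against 51.4%, and moved the median of all probe sets to 0.05. The interaction count was 1, 0 without the block, with all 16 arrays (with or without it), with offset 1, no filter or no trend, 3 with offset 64, and 0 to 3 with 1 array left out. At an unadjusted p under 0.05, 247 probe sets passed without the block.

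For the 118 named genes called for time, the 24 alternative fits gave 2804 values, 1 for each fit in which a gene was tested, and none reversed. Some dim genes did not pass the filter in every fit, such as HYH, which was tested in 17 of the 24. These fits share arrays and are not independent. Of the 118, 76 kept the call wherever they were tested among the 22 alternatives other than the all-16 fits. In those 2 fits 94 (with the block) and 90 (without it) lost the call. The replicate block changed the call of 19 (adjusted p = 0.0536 to 0.256 without it) and of no other of the 118. Of the genes not called, STIPL1 ran from -0.20 to 0.0065 with 1 array left out (0.0049 without phyB-1 10 h replicate 1 and 0.0065 without 4 h replicate 2), and XCT from -0.19 (without 10 h replicate 1) to 0.73. The cause was not tested. The low-sugar list had 4 to 6 genes higher and the glucosinolate list 4 to 5 lower in those 22 alternatives, while the median of the shade avoidance list ran from -0.30 to 0.11.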

Other observations

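Some called genes outside the gene lists had differences of at least 1.5 log2 units in phyB-1, and those below were chosen after their values were seen. Among the genes that were higher at 10 h, CCL, a short-lived transcript known to follow the clock, had 3748 and 4398 at 10 h against 759 and 698 at 4 h (2.45 ± 0.21 SE, limma adjusted p = 1.1e-07). THIC, the thiamin synthesis gene whose transcript carries a riboswitch, had 2392 and 2195 at 10 h against 689 and 641 at 4 h (1.76 ± 0.14). THE1, a receptor kinase that monitors the cell wall, rose by 1.75 ± 0.20, and EXGT-A3, a xyloglucan endotransglucosylase, by 1.90 ± 0.27. CHL, the chloroplast lipocalin that protects thylakoid membranes, had 974 and 782 at 10 h against 283 and 270 at 4 h (1.60 ± 0.16). ALDH6B2, a dehydrogenase of valine breakdown, rose by 1.55 ± 0.17.

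Among the genes that were lower at 10 h, AFR, an F-box gene of phytochrome A signalling, had 18.1 and 13.9 at 10 h against 133 and 176 at 4 h (-2.40 ± 0.24, adjusted p = 6.7e-07). AOR, an oxidoreductase that detoxifies reactive carbonyls in the chloroplast, had 359 and 267 at 10 h against 1536 and 1513 at 4 h (-2.24 ± 0.21). ATSPS4F, a sucrose phosphate synthase, fell by 1.97 ± 0.17, to 69.0 and 56.7 at 10 h against 335 and 255 at 4 h. MSRB6, a methionine sulfoxide reductase, fell by 1.59 ± 0.20, and MTP11, a manganese transporter, by 1.59 ± 0.16. TRY, a repressor of trichome formation, was at 16.3 and 1.2 at 10 h against 78.3 and 46.1 at 4 h (-1.70 ± 0.30), with its 10 h levels near background.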
